A study of Mus musculus with 18 samples.

Results

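Germinal vesicle (GV) oocytes of 12-month C57BL/6JAusb mice given nicotinamide mononucleotide (NMN) were compared with GV oocytes of untreated mice of the same age. A GV oocyte is an immature egg cell arrested in meiosis with its nucleus intact. The oocytes were found by their sample titles. Of the 18 deposited libraries 6 matched, and 1 untreated library that held 5008 counts was left out, which left 3 NMN oocytes (NMN 1, NMN 2 and NMN 2-1) and 2 controls (control 1 and control 2-1). The NMN mice drank water with 2 g/L NMN for 4 weeks, and the controls drank water without it. No allele, transgene or other agent is named for either group. Each library was made from 1 oocyte, whose nucleus was spun down after a mild lysis so that the liquid above it could be sequenced. Because no label says which mouse an oocyte came from, the oocytes of a group count together as a single sample. The groups were for that reason not tested against each other, and the values describe these 5 oocytes.

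NMN is converted to the coenzyme NAD by the NMNAT enzymes. NAD carries electrons between glycolysis, the citric acid cycle and the respiratory chain, and it is also consumed by the sirtuin deacylases and by the poly(ADP-ribose) polymerases (PARPs). A fully grown GV oocyte makes little new RNA, and it stores mRNAs laid down during growth, many of them kept silent until meiosis resumes. Its energy comes largely from pyruvate burnt in mitochondria, and NAD in oocytes is known to decline with age.

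Library totals ran from 2756183 to 5230007 counts, and the titles name a batch 2 for NMN 2-1 and control 2-1. NMN 1, NMN 2 and control 1, whose titles name no batch, were taken as batch 1. Levels are counts brought to a common library size with factors from trimmed means of M-values (scaled CPM), and 10536 genes with at least 10 counts in 2 of the 5 oocytes were measured. The oocyte genes Zp3, which encodes a zona pellucida glycoprotein, and Gdf9, which encodes a growth factor of the egg, lay at 1027 to 8818 and 1109 to 6570.0 scaled CPM, and of the 10 oocyte markers examined Ddx4 alone was low in every oocyte, at 0.229 to 21.4. Markers of other ovarian cells were low and overlapped between the groups. The 20 cumulus and granulosa markers summed to 49.6 to 139 scaled CPM in NMN oocytes and 67.0 to 89.6 in controls, with 9 of them at 0 in all 5. The 14 immune markers summed to 21.9 to 180.2 and 14.2 to 237, with 7 at 0 in all 5 and most of the sum from C1qb. The 14 theca and stroma markers reached at most 11.0, the 11 endothelial markers at most 33.1, and the 7 erythroid markers were at 0.

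Oocytes of different batches were less alike than oocytes of the same batch, whatever their treatment. Across genes, Spearman's rho was 0.895 between the NMN oocytes of batch 1 and 0.913 between NMN 2 and control 1, the highest of the 10 pairs. Within batch 2 it was 0.797, and it was 0.716 to 0.768 for the 6 pairs from different batches, whether or not they shared a treatment. NMN 2 and control 1 were more than 2-fold apart in 20.6% of genes, the other pairs of batch 1 in 25.1 and 29.6% and the pair of batch 2 in 44.3%, while the pairs from different batches were so in 49.9 to 58.0%. Genes are not independent replicates, and these coefficients describe the libraries.

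Against that spread, few genes separated the NMN oocytes from the controls. A gene was called higher or lower when the group means differed at least 2-fold after adding 1 CPM, every NMN oocyte lay on the same side of both controls, and the higher mean was at least 10 scaled CPM. By this rule 152 genes were higher in NMN oocytes (1.44% of the genes measured) and 290 were lower (2.75%), 442 in either direction (4.2%). Without the fold and level limits, 635 genes were higher in every NMN oocyte than in both controls (6.03%) and 868 were lower (8.24%). The median log2 ratio of all genes was 0.02, with 0.055 within batch 1 and -0.11 within batch 2. Scaling by library totals in place of trimmed means moved that median to -0.18 and the calls to 79 higher and 522 lower. With the deposited TPM, which also divide by transcript length, the calls were 63 and 270, with the level limit of 10 applied to TPM. Directions below are therefore read against the median of all genes under the same scaling.

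**Figure D1:**
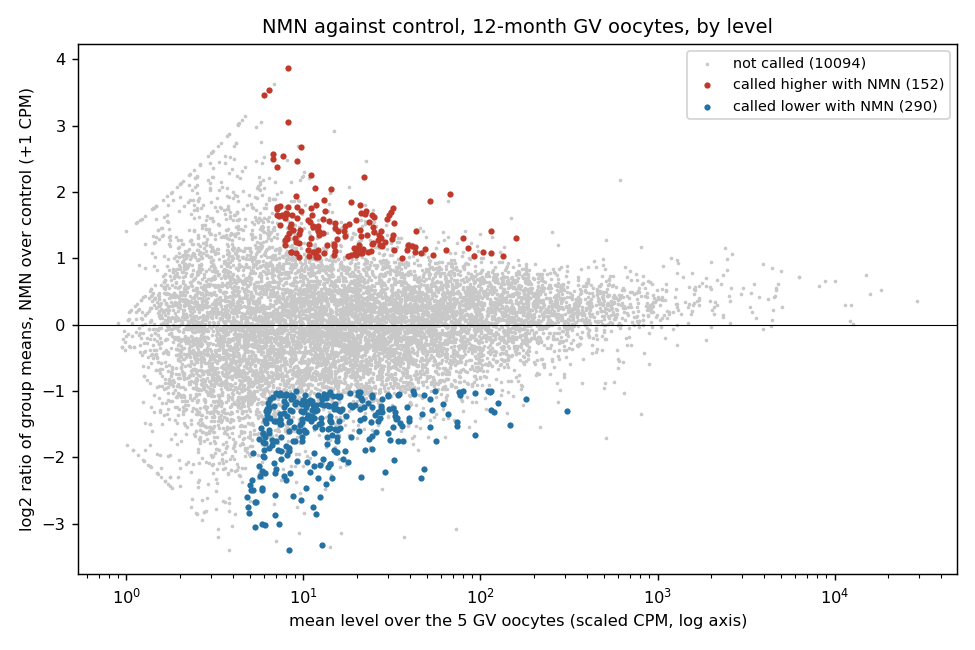
The log2 ratio of NMN over control GV oocytes (after adding 1 CPM) is plotted for each measured gene against its mean level in the 5 oocytes (scaled CPM, log axis). Genes called higher (152) or lower (290) lie almost wholly below 100 CPM, where 5 and 9 called genes are found above that level.

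The called genes were mostly weakly expressed. Their median level over the 5 oocytes was 14.9 scaled CPM for those higher and 11.9 for those lower, beside 15.2 for all measured genes. Of the 152 and the 290, 144 and 267 were protein coding (94.7 and 92.1%, beside 90.2% of all measured genes). Of the 1584 measured genes with a mean of at least 100 scaled CPM, 5 were called higher and 9 lower. Where both groups had counts, differences of 4-fold or more were found for 20 of the genes called higher and 78 of those called lower. Among all measured genes, called or not, they were found for 228 higher and 333 lower. When each NMN oocyte was set against the control of its own batch, 143 of the 152 and 272 of the 290 were called again. They were among 281 (2.67%) and 483 (4.58%) called in that way. Genes called by the first rule already had every NMN oocyte on the same side of both controls. They therefore met the order condition within batches in advance, and their calls could be lost only on the fold or level limit.

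The genes that stood farthest above the controls did not belong to 1 pathway. Tor3a, a torsin of the endoplasmic reticulum (ER), was at 11.0, 2.99 and 16.1 scaled CPM in NMN 1, NMN 2 and NMN 2-1, and no read was counted in either control. The pooled 101 counts correspond to 7.42 to 11.1 unscaled CPM (exact 95% Poisson interval, which covers counting error only). Set against 3 counts over the controls, the NMN mean of Tor3a was at least 32.7-fold higher. Such a bound takes the mean as exact and leaves out the spread between oocytes. Zfp184, a zinc finger gene, was at 11.9, 2.17 and 17.7 with no control counts, at least 34.5-fold higher. Both were at 0 in the 2 young GV controls (4-week mice) too. Their NMN means lay just over the limit of 10 CPM, so neither was called without NMN 1 (log2 ratios 3.40 and 3.45) or without NMN 2-1 (2.996 and 3.01).

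Igf1, the insulin-like growth factor that granulosa cells also make, was at 6.40, 2.44 and 31.9 scaled CPM in the NMN oocytes and at 0 in both controls, at least 44.3-fold higher. The young controls held 19.6 and 23.0. Most of the 120 NMN counts came from 1 oocyte, and without NMN 2-1 the log2 ratio was 2.44 in place of 3.87, with a mean under 10 CPM, so that the gene was no longer called. Igf1 lies on chromosome 10 at 87858265 to 87937042 (GRCm38) and overlaps Igf1os on the opposite strand. The strand used in counting is not given in the sources used here, so reads of the pair cannot be told apart. The cumulus and granulosa marker sum of NMN 2-1 was 49.6, the lowest of the 5 oocytes. The source of the Igf1 counts was not tested.

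Ciao2a, a factor of cytosolic iron-sulfur protein assembly, gave 27.4, 32.3 and 37.7 scaled CPM with NMN and 10.2 and 2.21 without, a 5.25-fold difference. Even the lowest NMN oocyte was above the higher control, and the young controls spread over both ranges at 10.04 and 45.9. Gdpgp1, a GDP-glucose phosphorylase, gave 9.60, 6.51 and 29.2 against 1.05 and 1.96, and was not called without NMN 2-1 (log2 ratio 1.85 from 2.68). Slc35b4, a nucleotide sugar transporter of the Golgi, was steadier at 28.3, 28.2 and 36.1 against 7.19 and 10.8.

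Emc3, a subunit of the ER membrane protein complex, was at 51.4, 37.5 and 38.1 scaled CPM with NMN and at 16.8 and 8.84 without, 3.30-fold higher. Stx6, a SNARE of the trans-Golgi network, was at 21.7, 19.8 and 38.4 against 7.72 and 5.65. Raet1d, a cell-surface ligand of the NKG2D receptor, was at 131, 88.5 and 70.0 against 19.6 and 28.2, but it overlaps its near copy Raet1e, between which the counting may have divided reads, so its level is uncertain. Trp73, the p53 relative p73, had 12.3, 8.96 and 13.1 against 3.16 and 2.70, 3.91-fold higher, and overlaps Trp73os on the other strand. Acsm4, an acyl-CoA synthetase, and Mab21l2 completed the 12 genes, 3.79-fold and 4.32-fold higher. Their calls were lost without NMN 2-1 (log2 ratio 1.33) and without NMN 1 (1.55).

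**Figure D2:**
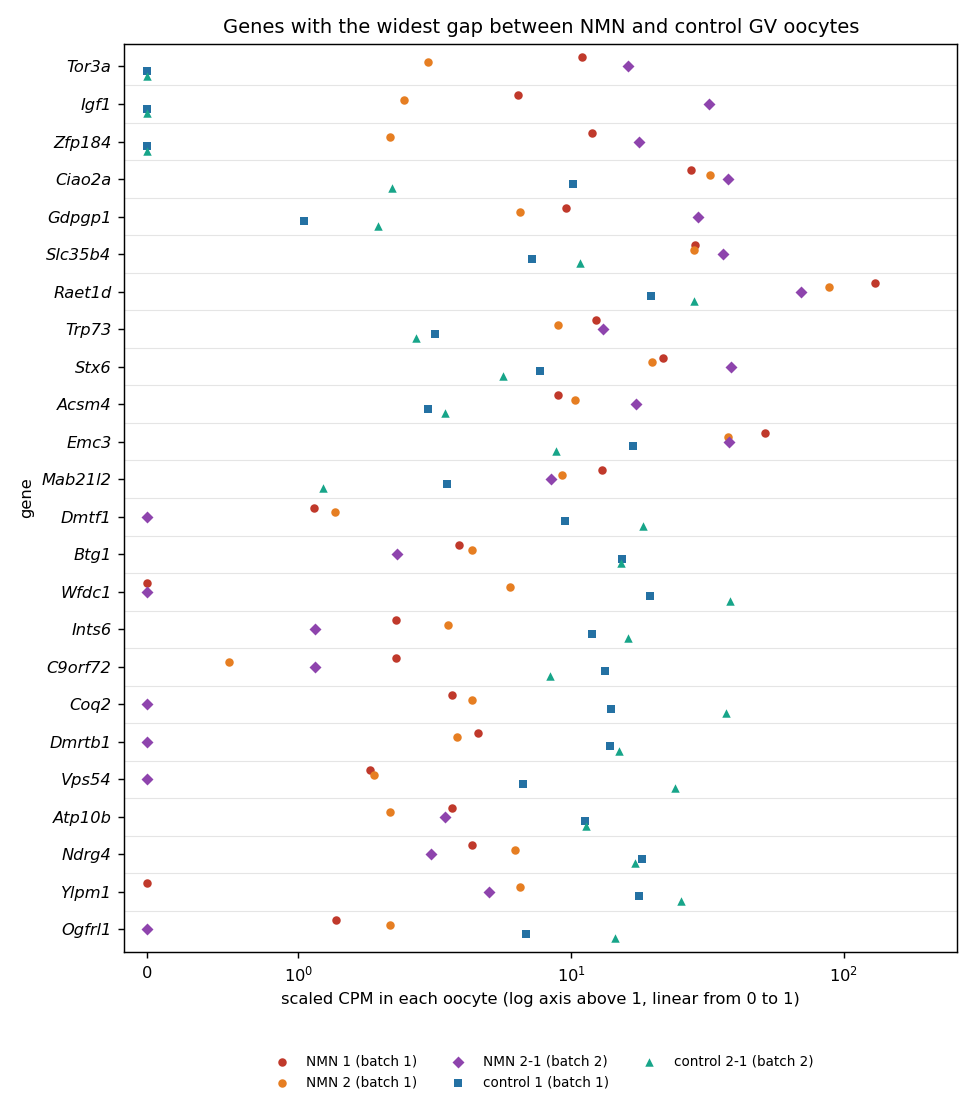
Scaled CPM in each of the 5 GV oocytes (log axis above 1, linear below) for the 12 genes with the widest gap in each direction. For the upper 12 genes the circles and diamonds of the NMN oocytes lie to the right of the squares and triangles of the controls, and for the lower 12 to the left.

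On the lower side, the widest gaps were again in genes of unlike function. Dmtf1, a Myb-like transcription factor, was at 1.14, 1.36 and 0 scaled CPM in NMN oocytes and at 9.47 and 18.4 in controls, 16.7-fold lower. Btg1, an antiproliferative protein that binds the CCR4-NOT deadenylase, was at 3.89, 4.34 and 2.31 against 15.4 and 15.2, 4.36-fold lower with controls that nearly coincided. Ints6, a subunit of the Integrator complex that cleaves nascent RNAs, was at 2.29, 3.53 and 1.15 against 11.9 and 16.2. The young controls were at 20.1 and 28.2 for Ints6 but at 3.09 and 9.13 for Btg1 and 2.57 and 0.783 for Dmtf1.

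Coq2, the prenyltransferase of coenzyme Q synthesis, had 3.66, 4.34 and 0 scaled CPM with NMN and 14.0 and 37.1 without. C9orf72, a gene of endosome and autophagy traffic, had 2.29, 0.543 and 1.15 against 13.3 and 8.35. Vps54, a tethering factor of the Golgi, had 1.83, 1.90 and 0 against 6.66 and 24.1. The other 6 were Wfdc1, Dmrtb1, Atp10b, Ndrg4, Ylpm1 and Ogfrl1, which were between 3.64-fold (Atp10b) and 14.5-fold (Wfdc1) lower. Of all 12, the calls of Dmtf1, Vps54 and Ogfrl1 were lost without control 2-1 (log2 ratios -2.51, -1.77 and -1.85), and that of C9orf72 without control 1 (-2.01). In young controls C9orf72 was at 0.257 and 3.39, Coq2 at 3.86 and 0, and Ylpm1 at 0 in both.

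NAD synthesis genes were weakly expressed, and 1 of the 11 measured was called lower (2.75% of all genes were). Of 28 genes of this list, 11 were measured and 7 were at 0 in all 5 oocytes; 7 of the 11 had a ratio above 0 and 4 below (51.2% of all genes were above 0 and 48.8% below), with a median log2 ratio of 0.06. The called gene was Nadk, the cytosolic kinase that turns NAD into NADP. It was at 8.69, 9.23 and 6.54 scaled CPM in NMN oocytes and at 20.2 and 32.7 in controls, 3.24-fold lower, with log2 ratios of -1.09 within batch 1 and -2.16 within batch 2. The pooled counts were 89 (6.45 to 9.88 unscaled CPM) and 248 (24.98 to 32.2). It remained called without each oocyte in turn. On deposited TPM it was at 2.55, 3.27 and 1.75 against 7.55 and 12.14, with a log2 ratio of -1.62 and no overlap. It was not called there only because the control mean lay under the limit of 10, which was applied to TPM too. The young controls were at 23.7 and 31.3. Nadk lies on chromosome 4 at 155562378 to 155591001.

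For the enzymes that act on NMN itself the 2 groups overlapped. Nmnat1, the nuclear enzyme that joins NMN to an adenylate, was at 32.9, 16.3 and 16.9 scaled CPM against 18.4 and 6.63. Nmnat2, its Golgi and cytosolic relative, was at 13.9, 18.2 and 0 against 9.12 and 1.96. Nampt, which makes NMN from nicotinamide, was at 12.3, 7.87 and 0 against 12.1 and 0.737, higher in the 3 oocytes of batch 1 than in those of batch 2. Nmrk1, which makes NMN from nicotinamide riboside, was at 25.6, 43.4 and 48.4 against 83.7 and 28.5, and Slc12a8, reported as an NMN transporter, at 5.26, 2.71 and 9.61 against 5.26 and 12.3. Slc25a51, the carrier that brings NAD into mitochondria, was at 6.86, 5.16 and 1.92 against 5.26 and 26.0, low in NMN 2-1 but level with its control in batch 1. Nadsyn1, which amidates the deamido form of NAD, was at 2.51, 4.61 and 26.5 against 2.46 and 4.42, highest in NMN 2-1. Set against the control of its batch, each NMN oocyte was above it for Nadsyn1, and with a mean log2 ratio of 1.37 the gene was called higher in that way (2.67% of all genes were). The kynurenine pathway genes Tdo2, Afmid and Kynu had log2 ratios of 0.12, 0.02 and 0.13.

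**Figure D3:**
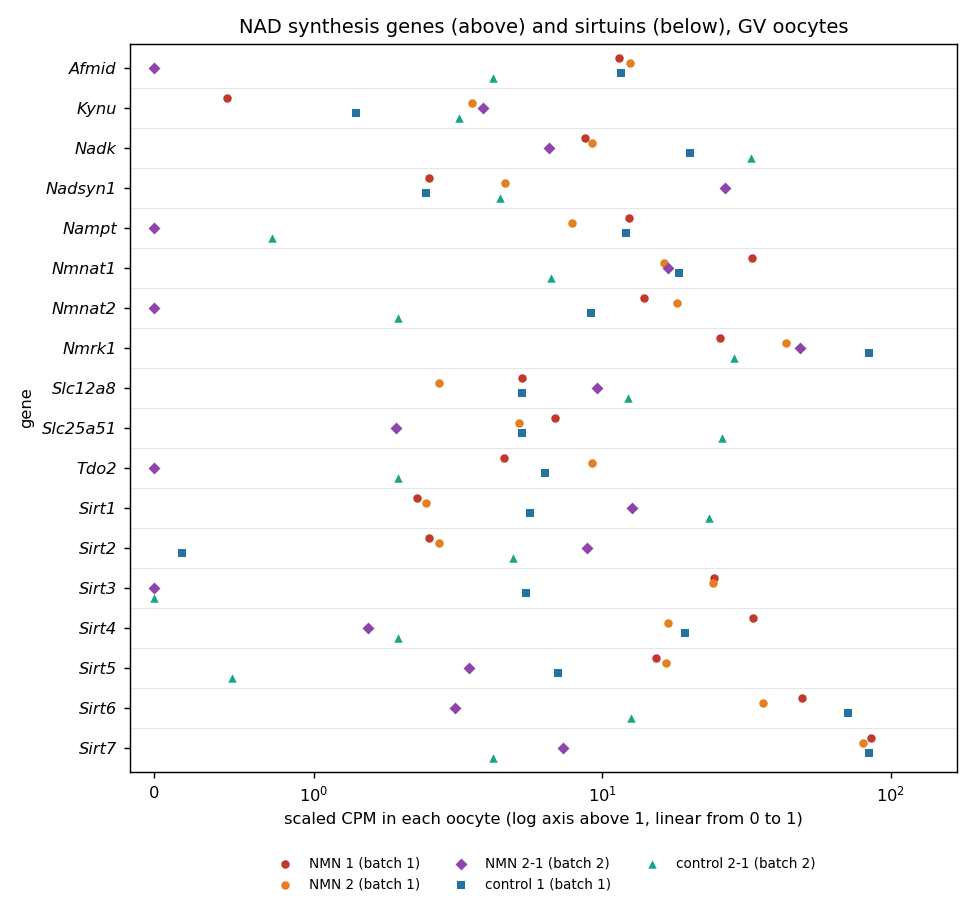
Scaled CPM in each GV oocyte (log axis above 1, linear below) for the 11 measured NAD synthesis genes and the 7 sirtuins. Nadk is the gene whose NMN oocytes all lie left of both controls, while Sirt4 and Sirt7 are far higher in the 3 oocytes of batch 1 than in the 2 of batch 2.

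The 7 sirtuins were all measured and no member was called. Of these, 5 had a ratio above 0 and 2 below, with a median log2 ratio of 0.64, but this value rested on single oocytes: it was -0.01 without NMN 1, 0.04 without control 2-1 and 2.62 without control 1, and 0.36 and 0.00 within the batches. Sirt3, the main mitochondrial deacetylase, was at 24.5 and 24.2 scaled CPM in the NMN oocytes of batch 1 and at 5.44 in its control, and at 0 in both oocytes of batch 2. Sirt1 was below the control of its batch in every NMN oocyte, at 2.29 and 2.44 against 5.61 and at 12.7 against 23.3. Sirt6 was also below, at 49.2 and 36.1 against 70.8 and at 3.08 against 12.5. Sirt2 and Sirt5 were above in every NMN oocyte, Sirt5 at 15.3 and 16.6 against 7.01 and at 3.46 against 0.491. Set against the control of their batch, Sirt5 was called higher (mean log2 ratio 1.33) and Sirt6 lower (-1.225; 4.58% of all genes were called lower in that way). Sirt7 was at 85.0, 79.8 and 83.7 in batch 1 and at 7.30 and 4.17 in batch 2.

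Of the 21 PARPs and other NAD-consuming enzymes 12 were measured, with 4 ratios above 0 and 8 below and a median of -0.27, which was 0.16 without control 2-1 and 0.01 without NMN 1. Of the 12, 1 was called lower (2.75% of all genes were). Parp12, a mono-ADP-ribosyltransferase, was called lower at 41.8, 104 and 90.7 scaled CPM against 111 and 206, at a log2 ratio of -1.001 that was -0.70 without NMN 1, -0.49 without control 2-1 and -0.89 as the mean within batches, and in none of these ways was it called. Parp1, the enzyme that responds to DNA breaks, was at 22.9, 10.3 and 21.1 against 7.89 and 10.3, 1.99-fold higher and under the limit for a call, with NMN 2 level with control 2-1. Tnks2, a tankyrase, was lower in every NMN oocyte at 11.4, 8.41 and 8.46 against 12.3 and 14.2.

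The mRNAs encoded by the mitochondrial genome had, with the sirtuins, the median farthest from that of all genes, and it was above 0 in both batches. They encode core subunits of respiratory complexes I, III, IV and V. All 12 measured members of 13 had a ratio above 0 (51.2% of all genes did), with a median log2 ratio of 0.65, 0.70 within batch 1 and 0.56 within batch 2. Their summed level was 47135, 27357 and 34758 scaled CPM in the NMN oocytes and 24343 and 21475 in the controls, or 36416 ± 9993 (SD, n = 3 oocytes) against 22909 ± 2028 (n = 2), 1.59-fold. No NMN oocyte overlapped a control, though NMN 2 was close to control 1. Summed over all measured genes, scaled levels did not overlap either, and the NMN mean was 1.17-fold higher. As a share of library counts, which needs no scaling factor, mitochondrial genes took 4.58, 2.87 and 3.68% against 2.76 and 2.80%. None was called, since the differences were under 2-fold or the oocytes overlapped.

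Cytochrome b mRNA (mt-Cytb) was at 24057, 14780.3 and 14818 scaled CPM with NMN and 13500.3 and 7811 without, 1.68-fold higher. The ATP synthase mRNA mt-Atp6 was at 12119, 7077 and 9136 against 6090.3 and 6491, and mt-Atp8 at 164, 89.8 and 84.2 against 70.5 and 57.2. Among complex I mRNAs, mt-Nd5 was at 649, 357 and 843 against 344 and 347, and mt-Nd1 at 2371, 1220.4 and 1038 against 951 and 842. These 5 were higher in every NMN oocyte than in both controls (6.03% of all genes were), while the other 7 overlapped.

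The members that overlapped differed in how. The cytochrome oxidase mRNAs mt-Co2 and mt-Co3 and the complex I mRNAs mt-Nd2 and mt-Nd4 were higher in each NMN oocyte than in the control of its batch, and 9 of the 12 were so in all (15.2% of all genes). mt-Co1 was at 1203 in NMN 2 and 1391 in control 1, and mt-Nd6 at 36.6 and 41.6. mt-Nd3 was at 82.5, 22.5 and 0 against 4.56 and 19.2, so that batch 2 went the other way. The list's median was 0.46 without NMN 1 and between 0.53 and 0.87 without each of the others, 0.40 with library totals and 0.38 with TPM. In the 2 young controls the sums were 34328 and 85876.

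**Figure D4:**
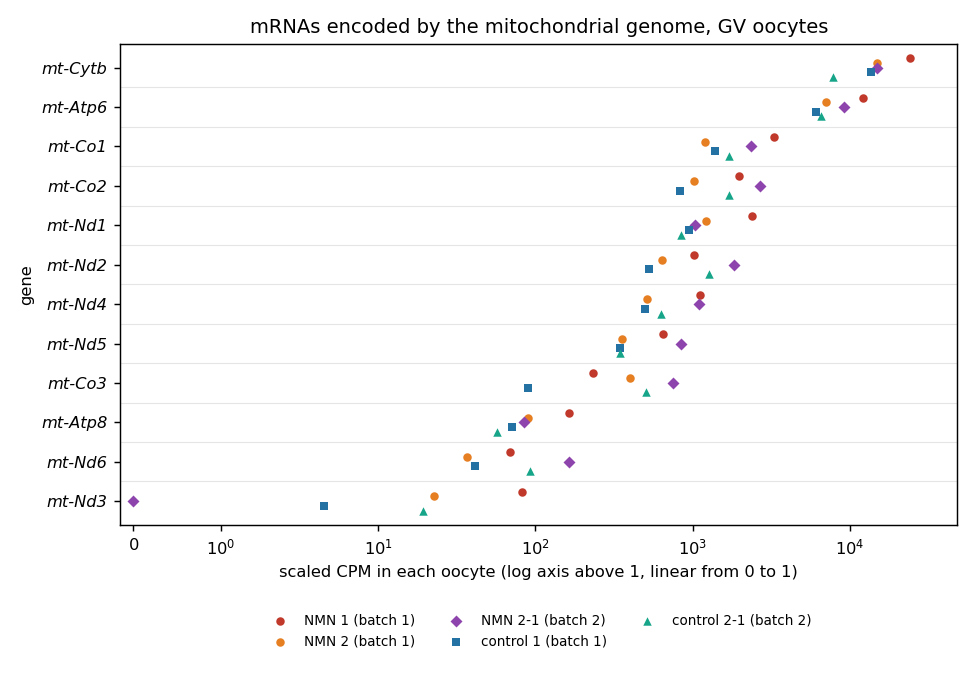
Scaled CPM in each GV oocyte (log axis above 1, linear below) for the 12 measured mRNAs of the mitochondrial genome. NMN 1 (red) lies to the right of both controls for 9 of the 12, and mt-Nd2, mt-Nd6 and mt-Co3 are the exceptions.

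Genes of the cytosolic ribosome were mostly slightly higher with NMN. All 82 were measured, 71 with a ratio above 0 and 11 below, with a median log2 ratio of 0.28 (0.30 and 0.38 within the batches). In 47 of the 82, every NMN oocyte was above the control of its batch and in 2 every one was below (15.2% and 17.1% of all genes). Yet the single genes differed little: 16 were higher in every NMN oocyte than in both controls (6.03% of all genes), such as Rps4x at 487, 353 and 494 scaled CPM against 329 and 306 and Rpl7a at 416, 432 and 489 against 368 and 375. Called higher (1.44% of all genes) were Rps12 at 16.7, 18.2 and 23.8 against 6.49 and 9.58, Rpl22l1, a paralog of Rpl22, at 56.9, 29.3 and 86.9 against 19.5 and 22.6, and Rpl12 at 5.49, 5.16 and 24.6 against 4.21 and 1.23. Rps12 was no longer called without control 1 (log2 ratio 0.96) nor Rpl12 without NMN 2-1 (0.77). Ribosomal protein genes have many near-identical processed pseudogenes, so the counts of Rps12 and Rpl12 are uncertain. The median of the list was 0.01 without NMN 2-1 and 0.05 without control 1, beside 0.005 and 0.15 for all genes. Without control 1 the list was thus below the median of all genes. With library totals it was 0.04, beside -0.18 for all genes. Among genes with a mean of at least 100 CPM it was 0.27, beside 0.22 for all genes of that level.

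Mitochondrial ribosomal proteins, which translate the mRNAs of the mitochondrial genome, had 62 of 79 members above 0 and a median of 0.31. At a mean of at least 100 CPM their median was 0.34, beside 0.22 for all genes of that level. Of the 79, 3 were called higher (1.44% of all genes were). Mrpl48 was at 513, 376 and 456 scaled CPM against 268 and 235, 1.78-fold higher with no overlap, and Mrps25 at 588, 557 and 482 against 467 and 259.8. Mrpl1 was called at 169, 172 and 166 against 119 and 44.9, with NMN oocytes that nearly coincided, but the log2 ratio of 1.04 was 0.50 without control 2-1. Mrpl38 was called at 25.1, 38.3 and 20.8 against 16.7 and 4.42 and not without control 2-1 (0.72), and Mrps2 at 15.1, 13.0 and 30.8 against 7.89 and 7.86 and not without NMN 2-1 (0.76).

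The nuclear genes of the respiratory chain leaned the same way less firmly. Complex I had 28 of 37 members above 0 and a median log2 ratio of 0.26, which turned to -0.18 without NMN 2-1 and was -0.01 with TPM. Complexes II to V had 28 of 39 and a median of 0.20, which was -0.07 without NMN 2-1, -0.03 with library totals and -0.05 with TPM. Under these 2 scalings both lists were still above the median of all genes, -0.18 and -0.15. Without control 1 the 2 lists were at 0.11 and 0.07, below the 0.15 of all genes. At a mean of at least 100 CPM, complex I had a median of 0.27 and complexes II to V 0.17, beside 0.22 for all genes of that level. Ndufb11, an accessory subunit of complex I, was at 966, 752 and 1218 scaled CPM against 665 and 667, and Ndufa9 at 477, 355 and 488 against 274 and 316. Uqcrc1, a core protein of complex III, was called higher at 17.1, 10.9 and 9.61 against 8.07 and 1.47. It was not called without control 2-1 (0.58) or without NMN 1 (0.96). Of the 39 members of complexes II to V, 1 was called higher (1.44% of all genes were).

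Proteasome genes had 31 of 37 ratios above 0 and a median log2 ratio of 0.35, which was 0.05 without control 2-1. Psma5, an alpha-ring subunit, was at 328, 312 and 249 scaled CPM against 242 and 127, Psma6 at 306, 274 and 338 against 219 and 234, and Psmb2 at 1344, 1048 and 941 against 932 and 882. No proteasome gene was called, and 5 showed no overlap with NMN higher (6.03% of all genes). Translation initiation and elongation factors had 22 of 33 above 0 (median 0.26, and -0.05 with TPM, above the -0.15 of all genes). Of the 33, 1 was called higher (1.44% of all genes were). It was Eef1g, a subunit of elongation factor 1, at 26.1, 9.77 and 14.2 against 2.98 and 7.61.

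Glycolysis, lactate and pyruvate genes had a median of 0.34 over 24 members but 0.16 and -0.26 within the batches. Ldhb, the lactate dehydrogenase of oocytes, was at 25482, 23066 and 13859 scaled CPM against 18060.0 and 10875, above the control of its batch in each NMN oocyte (log2 ratios 0.43 and 0.35), and at 5974 and 5837 in young controls. Antioxidant genes had a median of 0.32 over 23 members (0.41 and -0.18 within the batches, and -0.03 with TPM beside -0.15 for all genes). None of the 23 was free of overlap, whereas 6.03% of all genes were so with NMN higher and 8.24% with NMN lower. Glrx, a glutaredoxin, had 1590.4, 1216 and 291 against 738 and 180.5, and Sod1 had 596, 437 and 426 against 1120.2 and 418. In the citric acid cycle and fatty acid oxidation list, 12 of 24 were above 0. Of the 24, 1 was called higher and 1 lower (1.44% and 2.75% of all genes were). Idh3a, a subunit of NAD-dependent isocitrate dehydrogenase, was called lower at 13.5, 15.2 and 9.61 against 20.7 and 50.3, but not without control 2-1 (-0.66), and Acaa2, a thiolase of fatty acid oxidation, was called higher at 18.3, 15.7 and 7.30 against 5.44 and 6.14, but not without NMN 1 (0.88) or as the mean within batches (0.85).

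**Figure D5:**
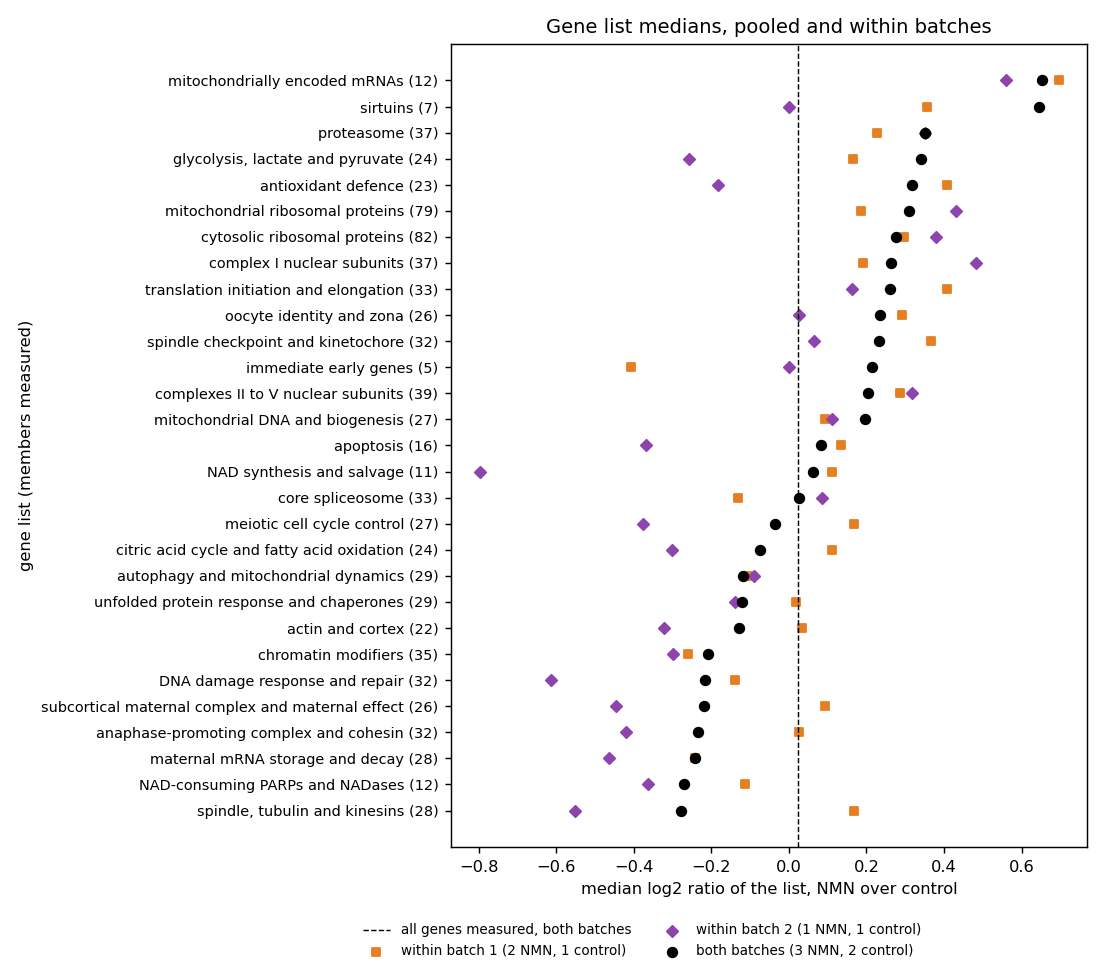
Median log2 ratio (NMN over control) of each gene list with both batches (black), within batch 1 (orange) and within batch 2 (purple). The dashed line is the median of all genes, 0.02; the mitochondrially encoded mRNAs lie to its right at 0.65, 0.70 and 0.56, while several lists have the batches on opposite sides.

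Genes of maternal mRNA storage and decay were the list with most calls on the lower side. These factors keep stored mRNAs silent or shorten their poly(A) tails. Of 28 measured, 9 were above 0 and 19 below, the median log2 ratio was -0.24 (-0.09 without control 2-1 and -0.47 without control 1), and 4 were called lower (2.75% of all genes were). In 9 of the 28 every NMN oocyte was below the control of its batch, and in 0 every one was above (17.1% and 15.2% of all genes). Pan3, which recruits the PAN2 deadenylase, was at 14.2, 22.5 and 48.1 scaled CPM against 74.7 and 122, 3.47-fold lower, with log2 ratios of -1.97 and -1.32 within the batches. It was called without each oocyte in turn, and the young controls were at 61.0 and 157. Eif4enif1, the 4E-T protein that holds stored mRNAs with eIF4E, was at 103, 73.6 and 40.7 against 139.9 and 217.

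Ythdf2, a reader of m6A that marks mRNAs for decay, was at 13.0, 15.7 and 22.3 scaled CPM against 25.6 and 94.0. Dcp2, the decapping enzyme, was at 5.94, 13.3 and 2.31 against 18.9 and 19.2. Eif4enif1 and Ythdf2 were not called without control 2-1 (log2 ratios -0.94 and -0.56) nor Dcp2 without NMN 2-1 (-0.92), and on TPM Dcp2 reversed to 0.09. The most abundant members, the licensing factor Btg4 at 989.9, 1346 and 575 against 1176 and 425 among them, overlapped. The summed level of the list was 3524 ± 1166 (SD, n = 3) against 3510 ± 1306 (n = 2).

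Chromatin modifiers had 25 of 35 members below 0 (48.8% of all genes were), with a median of -0.21 (-0.26 and -0.30 within the batches). In 12 every NMN oocyte was below the control of its batch (17.1% of all genes), and 1 was called lower (2.75% of all genes). Their sums were 1491, 1728 and 1694 scaled CPM against 1774 and 1794, a 1.09-fold difference without overlap. Kdm1a, the LSD1 demethylase, was called lower at 12.8, 10.3 and 5.00 against 25.6 and 39.3, 3.46-fold. Kat8, the H4K16 acetyltransferase, went the other way without overlap at 255, 196 and 159 against 149 and 68.5. The median was -0.03 without control 1, beside 0.15 for all genes.

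The DNA damage response and repair genes had 21 of 32 below 0 (48.8% of all genes were) and a median of -0.22, which was -0.01 without control 2-1. Of the 32, 2 were called lower (2.75% of all genes were). Trp53bp1, which binds chromatin at double-strand breaks, was called lower at 40.0, 36.1 and 12.3 scaled CPM against 62.8 and 60.4, and Mdc1, a scaffold at the same breaks, at 5.49, 9.23 and 0 against 13.0 and 11.3. Neither was called without NMN 2-1 (log2 ratios -0.68 and -0.65). Of 16 measured apoptosis genes, 1 was called higher (1.44% of all genes were). Apaf1, the core of the apoptosome, was called at 4.80, 11.1 and 14.99 against 2.81 and 3.19, and not without NMN 2 (1.45) or NMN 2-1 (1.16). In autophagy and mitochondrial dynamics, 2 of 29 measured genes were called lower (2.75% of all genes were). Ulk1, the initiating kinase of autophagy, was at 3.20, 3.53 and 4.61 against 13.7 and 6.87 (-0.72 without control 1). Sqstm1, the p62 receptor, was at 6.17, 11.7 and 2.31 against 13.0 and 19.9 (-0.86 without control 2-1, -0.81 without NMN 2-1). Without the oocytes named, these were not called.

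Oocyte-specific and meiotic genes mostly overlapped. The identity and zona list had 16 of 26 above 0, a median of 0.24 and no call. Gdf9 was at 6570.0, 4551 and 1109 scaled CPM against 3547 and 1769, Bmp15, its partner, at 195, 201 and 249.9 against 199 and 418, and Zp3 at 8818, 8274 and 1027 against 5496 and 1427. Zp2 was at 238, 278 and 572 against 229 and 1177, and Zp1 at 350.0, 241 and 147 against 209 and 285. For these 5 genes NMN 2-1 was below the control of batch 2, whereas in batch 1 the NMN oocytes were above or level with it. Mos, the kinase that holds the egg in metaphase, was at 1002, 858 and 133 against 939.8 and 81.0. Actb was at 64.2, 64.9 and 26.1 against 60.3 and 38.8, and Gapdh at 63.6, 37.5 and 6.54 against 19.99 and 16.7.

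Among meiotic regulators, Pde3a, the phosphodiesterase whose breakdown of cAMP lets meiosis resume, was called lower at 9.83, 23.9 and 16.1 scaled CPM against 26.3 and 45.2. It was not called without control 2-1 (log2 ratio -0.63) or NMN 1 (-0.81). Anapc1, the scaffold of the anaphase-promoting complex, was at 11.0, 5.97 and 3.84 against 14.6 and 47.9 (-0.97 without control 2-1, not called), with 82.9 and 55.8 in young controls. Kntc1, a kinetochore protein of the spindle checkpoint, was at 0.686, 7.33 and 2.31 against 8.59 and 43.0 (-1.11 without control 2-1, not called). The lists of the spindle, tubulin and kinesins, of the anaphase-promoting complex and cohesin, and of the subcortical maternal complex had medians of -0.28, -0.23 and -0.22, which turned to 0.16, 0.06 and 0.11 without control 2-1. Within the last of these, Dnmt3l, the cofactor of de novo DNA methylation, was called higher at 85.7, 61.3 and 41.5 against 28.6 and 27.3 (0.86 without NMN 1 and 0.96 as the mean within batches, not called), and Hsf1, the heat shock transcription factor, lower at 8.23, 7.87 and 3.08 against 11.2 and 19.4 (-0.85 without NMN 2-1 and -0.73 without control 2-1, not called). Sf3b3, a subunit of the splicing factor SF3B, was lower at 18.1, 32.0 and 5.77 against 40.2 and 43.0 (-0.71 without NMN 2-1, not called). The meiotic control, anaphase-promoting complex, kinetochore and spliceosome lists had 1 gene each called lower, of 27, 32, 32 and 33 measured (2.75% of all genes were). In the subcortical maternal complex list, 1 of 26 was called higher and 1 lower (1.44% and 2.75% of all genes).

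The called genes of higher level were picked out after their values were seen. Wtap, a subunit of the m6A methyltransferase, was the most abundant gene called lower, at 121, 148 and 310.2 scaled CPM against 474 and 482, 2.48-fold. Tox3, an HMG-box protein, was at 38.4, 94.2 and 118 against 239.9 and 241, 2.88-fold lower with controls that nearly coincided. The kinase Dyrk1a was at 48.5, 87.7 and 86.5 against 204 and 168, and Kdelr2, the receptor that returns escaped ER proteins, at 76.8, 53.5 and 118 against 203 and 177. On the higher side, Borcs5, part of the lysosome-positioning complex BORC, was at 250.3, 195 and 177 against 98.9 and 67.8, 2.49-fold, and Cdc123, an assembly factor of eIF2, at 184, 131 and 122 against 97.7 and 38.5.

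The ratio also moved with transcript length. Over 5 groups of about 2107 genes, from the shortest to the longest by the length in the deposited tables, the median log2 ratio was 0.17, 0.24, 0.04, -0.15 and -0.31, and the share called lower was 1.14, 1.23, 2.42, 3.80 and 5.17%. The genes called lower had a median length of 3024 bases and those called higher 1599, beside 1933 for all. Genes of at least 4 kb took 5.34, 6.83 and 7.53% of counts in the NMN oocytes and 8.03 and 9.35% in the controls, every NMN oocyte below both. Among lists with a median above 0, several were of short genes (687 bases for cytosolic ribosomal proteins, 870.5 for the mitochondrially encoded mRNAs, 1028 for mitochondrial ribosomal proteins, 1316 for the proteasome), and among those below 0 several were of longer ones (2521 for mRNA storage and decay, 2544 for DNA repair, 3024 for chromatin modifiers). Other lists did not follow this order. The kinetochore and NAD synthesis lists, at 2066 and 2163 bases, had medians of 0.23 and 0.06. Actin and cortex genes, at 1750 bases, had a median of -0.13. By mean level, from the lowest of 5 groups to the highest, the median log2 ratio was -0.07, -0.12, -0.07, 0.01 and 0.19. The part of length and of level in these differences was not tested.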

How the data were processed

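Single GV oocytes of 12-month mice were measured by RNA sequencing, 3 from NMN-treated and 2 from untreated mice. The submitters' processing notes name, with no order, Cufflinks, TopHat2 2.1.1, FastQC 0.11.8 and Trim Galore 0.4.5 and the builds mm10 and GRCm38; which tool counted reads, and its strand setting, is not given in the sources used here. Per the file headers, the deposited tables give an expected count per gene, not normalised, and TPM, divided by effective length and brought to a common total by the authors.

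Expected counts were rounded. TMM factors (edgeR 4.0.16, R 4.3.3) came from 12161 genes in the 16 distinct libraries of the series with at least 100000 counts. A pair of identical libraries was counted once. Symbols and positions came from GENCODE vM21 (GRCm38), which matched 46488 of 47069 identifiers; the 581 others held 0.13% of counts or less in every oocyte. A floor of 3 counts was 0.526 to 1.15 scaled CPM per oocyte, and 0.281 over the NMN and 0.307 over the control group.

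Log2 ratios compare group means after adding 1 CPM; folds are plain ratios of scaled means. Within-batch values set each NMN oocyte against the control of its batch. Tables were made with pandas 2.3.3 in Python 3.11.15, and the procedure was tested on simulated data.

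Genes were named by a rule: the 12 called genes per direction with the widest gap between groups, up to 4 called per list, measured NAD synthesis genes and sirtuins, and Gdf9, Bmp15, Zp1, Zp2, Zp3, Btg4, Mos, Gapdh and Actb. Other list members are examples picked after their values were seen. The oocytes, the 29 oocyte and pathway lists and the 5 lists of somatic markers were chosen with earlier results of these data known. In the kinetochore list, Ska2 replaced Skap2, entered by mistake, after values had been seen. Alternatives used other scaling (DESeq2 1.42.0 size factors among them), filters, pseudocounts, TPM, left-out oocytes and batches.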

Additional observations from a re-analysis of the deposited data

Results flagged for a closer look

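In 3 of the 52 named called genes the NMN oocytes lay wholly on 1 side of the controls in GV oocytes and wholly on the other side in MII oocytes, the mature eggs of mice of the same age and treatment. The share over all genes measured is not given, so the 3 cannot be set against a background. Whether the stages differ was not tested. Emc3, a subunit of the ER membrane protein complex, had a log2 ratio of 1.65 in GV oocytes, and in MII oocytes it was at 0, 0 and 1.25 scaled CPM with NMN and at 19.2, 3.002 and 5.45 without (-2.85). Mrpl1, a mitochondrial ribosomal protein, had a ratio of 1.04 in GV oocytes, and in MII oocytes it was at 0, 0.310 and 0.937 against 37.0, 27.3 and 27.96 (-4.49). Dcp2, the decapping enzyme, had a ratio of -1.29 in GV oocytes, and in MII oocytes it was at 119.7, 41.3 and 33.1 against 25.7, 25.8 and 25.4 (1.30). In the GV oocytes the ratio of Mrpl1 was 0.50 without control 2-1, and that of Dcp2 was -0.92 without NMN 2-1 and 0.09 on TPM. Among the MII libraries, NMN 1 and NMN 2 stood apart, with mRNAs of the mitochondrial genome summing to 545782 and 463648 scaled CPM, beside 56913 in MII NMN 2-1 and 84379 to 93677 in the MII controls. The part of this in the MII values was not tested.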

How the results depend on the processing

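Counts of genes higher and lower with NMN, 152 and 290, moved to 79 and 522 with library totals, 96 and 189 with a pseudocount of 5 CPM, 412 and 12 with the library of 5008 counts kept, 447 and 464 within batch 1, 1186 and 1692 within batch 2, and 281 and 483 as the mean of the batches. With TPM, 63 were higher. With a mean of at least 100 CPM, chosen after seeing the data, they were 5 and 9. Leaving out each oocyte in turn gave 243 to 1145 higher and 395 to 1342 lower, both highest without control 1. The order condition of the call is easier to meet with fewer oocytes. With 1 oocyte of each group, as in batch 2, any unequal values meet it. In a paired analysis with a replicate block of same-numbered oocytes (1 and 2-1), 455 were higher and 778 lower; the labels do not say that these numbers pair oocytes beyond their batch. The median of all genes, 0.02, was -0.18 with library totals, -0.15 with TPM, 0.53 with the low library kept, -0.11 within batch 2, 0.22 at 100 CPM or more, and -0.055 to 0.15 without 1 oocyte. Of the 52 named called genes, 19 were called without each oocyte in turn. Leaving an oocyte out cannot make separated groups overlap, so these calls could be lost only on the fold or level limit. Without control 2-1, 15 calls were lost, 14 without NMN 2-1, 8 without NMN 1, 3 without control 1 and 1 without NMN 2. As the mean within batches, where separated groups likewise meet the order condition in advance, 3 were lost. On TPM, where the level limit of 10 was kept, 33 were lost. The sign of the ratio changed for Dcp2 on TPM (0.089) and, among lists whose summed levels did not overlap between the groups, for 4 medians: kinetochore (-0.036 under the block; -0.033 to 0.20 without a control), mitochondrial DNA (-0.0050 with totals; -0.090 with TPM; -0.18 to 0.24 without 1 oocyte), chromatin modifiers (0.36 with the low library) and translation factors (-0.051 with TPM). Under those scalings and with the low library, the last 3 stayed on their side of the median of all genes, whereas without control 2-1 mitochondrial DNA did not. Lists with overlapping sums changed sign too, such as complex I (-0.18 without NMN 2-1) and the PARPs (0.16 without control 2-1). The causes were not tested. Most called genes lay near 10 CPM, where few counts limit precision.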
